A study of Mus musculus with 24 samples.

Results

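The 8 genes described here encode proteins of the red cell membrane and surface. They are Slc4a1, Gypc, Rhag and Rhd, which encode proteins that span the membrane, and Ank1, Sptb, Epb41 and Epb42, which encode proteins of the skeleton beneath it. They were chosen by gene symbol from a table of 48709 genes, and each symbol was matched by 1 gene. RNA was measured in 24 libraries from whole blood and cerebral cortex of mouse neonates, whose dams had been exposed during pregnancy to nano-sized particulate matter (nPM), a resuspended urban air pollutant, or left unexposed. In each tissue 6 libraries came from nPM-exposed and 6 from unexposed control neonates, with 3 females and 3 males in each. The labels give the strain as C57BL/6J (the methods name C57BL/6NJ) and the age as 3 to 5 days. Exposure ran from gestational day 2 until birth, on 3 days of each week for 5 h a day, and the labels give the concentration as 300 mg/m3, while the methods write the unit as micrograms. Per the methods the controls breathed filtered air, and the 3 pups of each sex and exposure came from different litters. Whether females and males of an exposure group shared litters is not stated. No label ties a blood library to a cortex library of the same animal.

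The red cell membrane is a lipid bilayer held to an elastic network of spectrin. Band 3, the anion exchanger encoded by Slc4a1, anchors the network from the membrane through ankyrin (Ank1) and protein 4.2 (Epb42), and glycophorin C (Gypc) holds it at a further junction through protein 4.1 (Epb41). The beta chain of spectrin is encoded by Sptb, and Rhag and Rhd encode proteins of the Rh complex, which sits beside band 3. On mm10 the genes lie at chr11:102348824-102366203 (Slc4a1), chr18:32528322-32560034 (Gypc), chr17:40811126-40840754 (Rhag), chr4:134864536-134896172 (Rhd), chr8:22974844-23150497 (Ank1), chr12:76580488-76710547 (Sptb), chr4:131923413-132075321 (Epb41) and chr2:121017891-121037072 (Epb42), and counts were summed over all exons of a gene. The circulating red cells of a newborn mouse include many reticulocytes, which still carry RNA, so these transcripts can be read in whole blood.

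Levels are given as CPM, the usual depth-scaled read count. Plain CPM divides by the total count of a library, and scaled CPM also divides by edgeR's TMM factor, which was computed within a tissue. The totals were 13595647 to 21895536 counts in the 11 blood libraries used and 22301409 to 33804371 in the 12 cortex libraries. A count of 3 stood at 0.137 to 0.221 CPM in blood and at 0.0887 to 0.135 CPM in cortex. Control female V2 stood apart from the other blood libraries and was left out. The methods also leave out a blood sample but do not name it. Its globin genes held 50.1% of the counts, against 66.2% to 76.8% in the other 11, it had 22461 genes with a count against 13254 to 17273, and its 7 neuronal markers summed to 80.0 CPM. In V2, 7 of the 8 members were lower than in every other control blood library, and Gypc was not.

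Promoters of 5 of the 8 genes were in the RefSeq table of GRCm38.p6, with 7 start sites, and those of Slc4a1, Ank1 and Gypc were not used here. They were searched on both strands for AGATAA, which Gata1 can bind, and for CCACACCC, which Klf1 can bind, both being regulators of red cell genes. The first motif was found at 2 of the 7 start sites, in Epb42 and in Rhd, and stood in 11.2% of all 32851 promoters of the same length, whereas the second was found at 0 of the 7 and in 3.56% of all. The 2 promoters with a match are shown from 250 bases before the start to 50 bases after it, 5′ to 3′ on the strand of the gene, with the match in capitals. Epb42 lies on the minus strand (chr2:121036828-121037127), and its match read in the reverse direction from position -226. Rhd lies on the plus strand (chr4:134864286-134864585), and its match began at position -43.
Epb42: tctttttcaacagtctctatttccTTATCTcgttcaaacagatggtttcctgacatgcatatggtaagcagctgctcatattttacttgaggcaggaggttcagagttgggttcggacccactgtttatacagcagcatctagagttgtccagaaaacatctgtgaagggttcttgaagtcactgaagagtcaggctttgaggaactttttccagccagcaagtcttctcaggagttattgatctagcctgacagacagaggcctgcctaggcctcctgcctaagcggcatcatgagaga
Rhd: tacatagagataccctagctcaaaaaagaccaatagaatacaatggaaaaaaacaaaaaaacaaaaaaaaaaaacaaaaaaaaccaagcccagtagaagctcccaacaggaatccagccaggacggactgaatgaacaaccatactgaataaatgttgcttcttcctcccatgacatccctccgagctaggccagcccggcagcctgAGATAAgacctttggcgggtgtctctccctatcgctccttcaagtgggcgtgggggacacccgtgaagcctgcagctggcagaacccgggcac

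In blood the 8 genes together took 1.03% to 1.84% of all counts, and 3.91% to 5.97% of the counts that were not globin. Epb41 alone took 69.9% to 78.9% of the counts of the 8. Its plain CPM ran from 7861 to 13006 with a median of 10185 over 11 libraries, above that of Slc4a1, which ran from 1869 to 4250 with a median of 2758. Levels were compared between genes per kilobase of exon. Epb41 (median 639 CPM per kb) and Slc4a1 (564 CPM per kb) stood at the top, and Epb41 was the higher of the pair in 8 of 11 libraries. Epb42 (42.9 CPM per kb) and then Sptb (26.6 CPM per kb) followed, and each was above the next gene in 11 of 11 libraries. Rhd (12.2 CPM per kb), Ank1 (11.7 CPM per kb) and Rhag (10.8 CPM per kb) did not separate, with Rhd above Ank1 in 8 libraries and Ank1 above Rhag in 7. Gypc was the lowest at 3.9999 CPM per kb, below Rhag in 11 of 11 libraries.

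Partners of the skeleton stood at unequal RNA levels, with Ank1 at 0.353 to 0.608 times the per-length level of Sptb. The Rh pair was close, with a ratio of Rhag to Rhd of 0.594 to 1.19. Within their gene families the members held nearly all of the per-length signal in blood. Slc4a1 held 99.7% to 99.97% of the sum with 6 other Slc4a genes, Epb41 held 99.6% to 99.96% of the sum with 6 Epb41-like genes, and Sptb held 91.7% to 97.0% of the sum with 3 other beta spectrins. In cortex the order of the families was the opposite, and the members held a median of 0.390% (Slc4a1), 4.47% (Epb41), 2.76% (Sptb) and 3.18% (Ank1 beside Ank2 and Ank3). In plain CPM, 0 of the 21 paralogs were higher in control blood than in control cortex, and with TMM factors 1 of the 9 tested was.

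The 8 genes varied together from library to library in blood. Over 11 libraries the Pearson correlation of scaled log2 CPM was above 0 in 28 of 28 pairs, from 0.53 for Sptb with Rhag to 0.94 for Slc4a1 with Rhd, with a median of 0.82. The median over pairs of 2000 other blood genes was 0.19, and all of these values share the same libraries and scaling factors. In scaled CPM, nPM female V3 was the highest library for 6 of the 8 genes and nPM female V18 for the other 2. Control female V4 was the lowest for 7 of 8 on that scale, and the highest library was 2.07 (Epb41) to 2.91 (Sptb) times the lowest. The place of V4 depended on the scale. In plain CPM control male V6 was below V4 for every member but Slc4a1, with Ank1 at 96.4 against 155 and Epb41 at 7861 against 8033. The 3 genes outside the list whose pattern was most like the members' mean pattern, among 2105 genes with a mean of at least 100 counts, were Mgst3 (r = 0.98), Urod (r = 0.98), an enzyme of heme synthesis, and Add2 (r = 0.98), the beta adducin of the same skeleton.

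**Figure D1:**
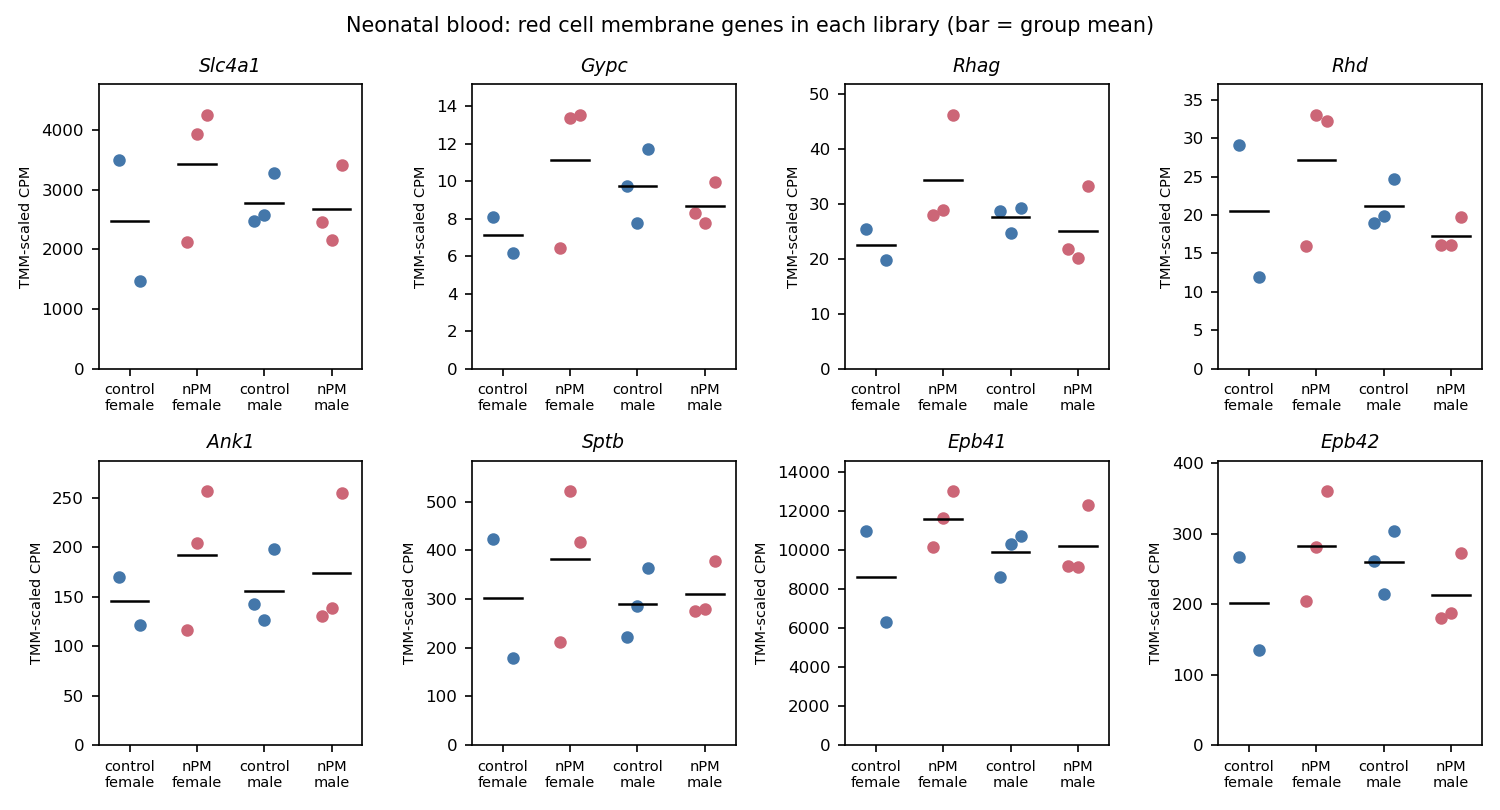
Scaled CPM of each gene in 11 blood libraries, by exposure and sex, with points for libraries and bars for group means (V2 left out). Control females had 2 libraries, with V4 at or near the bottom of most panels, and the exposed and control libraries overlapped in every panel.

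The first comparison asked whether prenatal nPM exposure changed these genes in blood. None of the 8 passed the test, and the exposed and control libraries overlapped for each of them. Slc4a1 was at 1466, 2479, 2573, 3279 and 3490 scaled CPM in the 5 control libraries and at 2128 to 4252 (median 2940) in the 6 nPM libraries. The fitted difference was 0.13 log2 (95% interval -0.43 to 0.69, edgeR adjusted p = 1.00). Gypc was at 6.16, 7.78, 8.08, 9.75 and 11.7 scaled CPM in controls and at 6.46 to 13.5 (median 9.15) with nPM. Its difference was 0.12 log2 (-0.33 to 0.58). For both genes the lowest library was a control and the highest an nPM library, and the other libraries were interleaved. Rhag was at 19.8, 24.8, 25.4, 28.8 and 29.3 in controls and at 20.1 to 46.2 (median 28.4) with nPM, a difference of 0.18 log2 (-0.30 to 0.65). Rhd was at 11.97, 19.02, 19.8, 24.7 and 29.1 in controls and at 16.01 to 33.03 (median 17.9) with nPM, a difference of -0.04 log2 (-0.54 to 0.45).

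Among the skeleton genes, Ank1 was at 121, 126, 143, 170 and 198 scaled CPM in controls and at 116 to 257 (median 172) with nPM, and its difference of 0.22 log2 (-0.28 to 0.71) was the largest of the 8. Sptb was at 179, 222, 286, 363 and 423 in controls and at 211 to 521 (median 328) with nPM, a difference of 0.14 log2 (-0.37 to 0.65). Epb42 was at 135, 214, 262, 267 and 304 in controls and at 180 to 360 (median 239) with nPM, a difference of 0.03 log2 (-0.49 to 0.54). The adjusted p was 1.00 for all 8, 0 of 8 passed an unadjusted p of 0.05 or 0.005 in edgeR, and the same held for DESeq2 and limma voom. Over all 9977 genes tested 0.0% passed the adjusted test, 0.17% the unadjusted cutoff of 0.005 and 3.11% that of 0.05. Groups did not overlap for 0 of 8 members and for 0.21% of all genes. The members' median was 0.13 log2, with 7 of 8 above 0, and that of all genes 0.00 with 50.5% above 0. This sign turned on V4: without it 3 of 8 were above 0 and the median was -0.03, and with V2 put back 8 of 8 were above 0 and the median was 0.44. In bulk blood, a change in the number of red cells and a change in RNA per red cell cannot be told apart.

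In the exact permutation tests, which hold no covariates, Epb41 was the member for which the scale decided the call. The edgeR test did not call Epb41 on either scale. In plain CPM it was at 7861, 8033, 9500, 9539 and 10046 in the 5 controls and at 10185 to 13006 (median 10459) in the 6 nPM libraries, so that every exposed library was above every control. This was so in both sequencing lanes that held blood libraries, and V2, at 5909, lay below all of them. The mean was 1.23 times the control mean in plain CPM, with an exact two-sided permutation p of 0.0022 over 462 assignments, the smallest they can give, and p = 0.035 after adjustment over 16 exact permutation tests. In plain CPM 0.19% of all genes tested had every nPM library above every control. In scaled CPM the controls were at 6302, 8603, 10310, 10730 and 10972.5 and the nPM libraries at 9150 to 13014 (median 10893). There the groups overlapped, the ratio of means was 1.16 and the exact permutation p was 0.20 (adjusted 0.79). The edgeR difference was 0.20 log2 (-0.32 to 0.73), and 0.29 log2 with library totals alone (unadjusted p = 0.053, adjusted p = 0.998). Globin held 71.3% to 76.8% of the counts in controls and 66.2% to 75.6% with nPM, and its part in this difference was not tested.

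**Figure D2:**
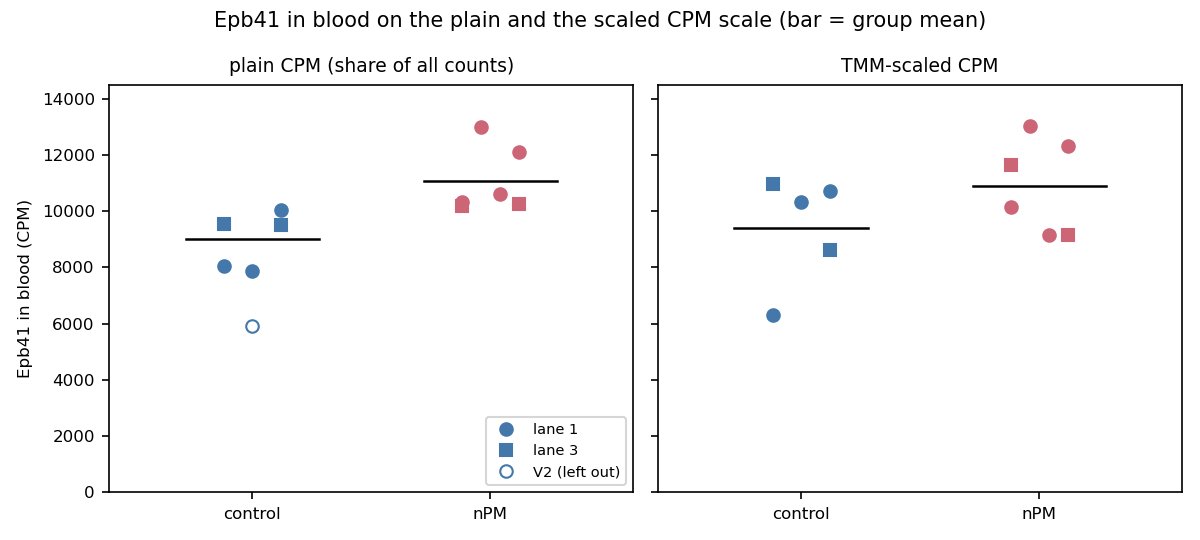
Epb41 in blood libraries in plain CPM (left) and scaled CPM (right), by exposure, with circles for lane 1, squares for lane 3, bars for means and an open circle for V2. The nPM libraries, from 10185 to 13006, lay above all controls in plain CPM, and the groups overlapped in scaled CPM.

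The second comparison asked whether the response of blood to nPM differed between females and males. No member passed the adjusted test, and the fitted term (the nPM difference in males minus that in females) was below 0 for 8 of 8 members against 45.9% of all genes. Its median was -0.89 log2 over the members and 0.08 over all genes. In females the fitted nPM difference was above 0 for all 8 (0.48 to 0.72 log2), against 47.0% of all genes, and in males it was below 0 for all 8 (-0.55 to -0.0011 log2), against 48.1% of all genes. For 3 genes the male sign differed without covariates. In scaled log2 CPM the male difference was above 0 for Ank1 (0.12), Sptb (0.11) and Epb41 (0.0397) and below 0 for the other five. Because the 8 genes moved together across libraries, these signs are not 8 separate observations. Control females without V2 were 2 libraries, V4 and V17.

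Gypc had the largest ratio of difference to error. In females it was at 6.16 and 8.08 scaled CPM in controls and at 6.46, 13.4 and 13.5 with nPM, and in males at 7.78, 9.75 and 11.7 in controls and at 7.77, 8.32 and 9.98 with nPM. The term was -1.10 log2 (95% interval -1.84 to -0.37), and the edgeR test gave an unadjusted p = 0.0055. After adjustment this edgeR value was 0.45. The exposed females were high in V3 and V18 and low in V1, which lay between the controls. Rhd was at 11.97 and 29.1 in control females, at 16.01, 32.3 and 33.03 in nPM females, at 19.02, 19.8 and 24.7 in control males and at 16.04, 16.06 and 19.8 in nPM males. Its term was -1.12 log2 (-1.99 to -0.26, unadjusted p = 0.014). Epb42 was at 135 and 267, then at 205, 281 and 360 in females, and at 214, 262 and 304, then at 180, 188 and 273 in males, with a term of -1.07 log2 (-1.99 to -0.15, unadjusted p = 0.025). Rhag was at 19.8 and 25.4, then at 27.97, 28.9 and 46.2 in females, and at 24.8, 28.8 and 29.3, then at 20.1, 21.8 and 33.3 in males, with a term of -0.88 log2 (-1.73 to -0.02, unadjusted p = 0.045). Rhag was the 1 member whose female groups did not overlap, which 7.73% of all genes showed in that direction. In males 0 of 8 members had every nPM library below every control, against 5.03% of all genes.

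For the other four genes the unadjusted p was above 0.05, with terms of -0.91 (Slc4a1), -0.67 (Sptb), -0.52 (Epb41) and -0.48 log2 (Ank1). So 4 of 8 members had an unadjusted p under 0.05, all below 0, where 10.7% of all genes had one and 5.65% had one below 0. None of the 8 passed the adjusted test (0.0% of all genes) or the cutoff of 0.005 (0.902%). The adjusted p of the members ran from 0.45 to 0.69. The term was below 0 for all 8 members in each of the 23 alternatives tried, and the count under 0.05 ran from 0 to 6. It was 0 of 8 without RIN, the RNA integrity number, as a covariate, where the median of the terms was -0.61 log2. Without V4, when V17 was the lone control female, it was 1 of 8 and the median was -0.53 log2, with Epb41 at -0.0953. Without nPM male V7 it was 6 of 8 and the median was -1.26 log2. It was 1 of 8 with V2 put back, where the terms grew to -1.17 to -1.89 log2. With library totals alone the median of all genes moved by 0.40 log2. The members then ran from -0.13 to -0.78 log2 with a median of -0.57 log2, and the count under 0.05 was 1 of 8.

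**Figure D3:**
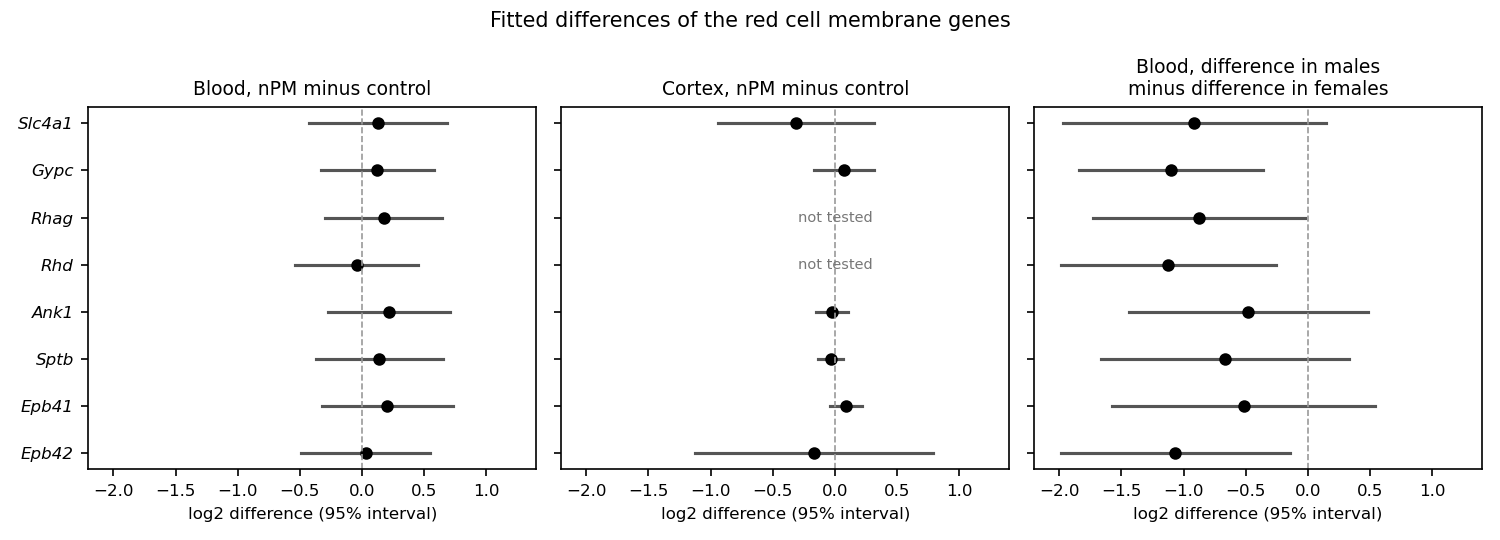
Fitted log2 differences with 95% intervals for nPM minus control in blood and in cortex and for the sex term in blood, with each gene on its own line. The intervals cross 0 in the first 2 panels, and in the third all 8 estimates lie below 0, from -1.12 to -0.48. In the third panel the intervals of Slc4a1, Ank1, Sptb and Epb41 also cross 0.

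Other measures moved with the sex term. The 13 erythroid markers tested in blood were below 0 in 13 of 13 (median -0.75 log2), and the 4 platelet markers in 4 of 4 (median -1.04 log2, with 4 of 4 under an unadjusted p of 0.05), while 6 of 6 neutrophil markers were above 0 (median 0.90 log2) and 4 of 4 B cell markers were too (median 0.86 log2). Values of the T and NK cell markers for this term are not given here. Over all genes tested 54.1% lay above 0, 10.7% had an unadjusted p under 0.05 and 5.65% had one below 0. Of 28 other genes of the red cell membrane and skeleton, 27 were tested, 23 lay below 0 (median -0.59 log2), and 6 had an unadjusted p under 0.05, each of them below 0. Among them were Tmod1 (-1.38 log2, a cap of actin filaments), Kel (-1.24 log2), Add2 (-1.35 log2) and Tpm1 (-0.98 log2). Of the 21 paralogs 8 were tested, and 5 lay above 0. The RIN coefficient was taken from the fit of the nPM difference without the sex term. There it was below 0 for 8 of 8 members (median -0.50 log2 per unit) and for 52.3% of all genes. None passed the adjusted test (edgeR adjusted p of at least 0.94), and 1 of 8, Sptb, had an unadjusted p under 0.05 (0.036), as 4.63% of all genes had. V3 (7.6), V18 (7.6) and V17 (7.5) had the lowest RIN of the blood libraries. The part of cell composition and of RIN in the sex term was not tested.

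For the nPM difference in both sexes together, 13 of the 27 other membrane and skeleton genes were above 0 and 14 below, the median was 0.00 log2, and 0 passed an unadjusted p of 0.05. In lane 1, with 4 nPM and 3 control blood libraries, the mean difference of scaled log2 CPM was above 0 for 8 of 8 members (median 0.28 log2). In lane 3, with 2 and 2, it was above 0 for 5 of 8 (median 0.07 log2). The neuronal markers also differed by lane, with sums of 5.66 to 7.71 CPM in the 4 blood libraries of lane 3 and 0.294 to 0.880 CPM in 6 of the 7 of lane 1, V5 being at 31.5 CPM. The cortex libraries stood at 5699 to 6673 CPM. The part of these transcripts in the blood values was not tested.

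The third comparison set blood beside cortex, as a check of where the genes are read. All 8 were higher in control blood than in control cortex, and the libraries did not overlap for any of them in plain CPM, as was so in that direction for 2.81% of the 31272 genes with a count in any control library. Slc4a1 was at 1869 to 3070 plain CPM in the 5 blood libraries and at 1.28 to 3.22 in the 6 cortex libraries. Epb42 was at 163 to 289 in blood and at 0.0709 to 0.362 in cortex, and Epb41 at 7861 to 10046 in blood and at 50.8 to 68.5 in cortex. The other skeleton genes were nearer, with Ank1 at 96.4 to 186 and 23.6 to 30.2, and Sptb at 218 to 368 and 83.6 to 112. Gypc was the nearest, at 5.94 to 10.96 in blood and at 3.05 to 4.13 in cortex.

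Of the 8 members 6 had a count in every library and were tested, and 6 of 6 passed the adjusted test as higher in blood, as did 39.5% of all 10275 genes. With TMM factors the log2 difference ran from 5.37 (Gypc, adjusted p = 6.55e-15) to 14.47 (Slc4a1, adjusted p = 3.77e-15). TMM sets the typical gene of the tissues equal, and with library totals alone the median of all genes moved by -4.44 log2. On that scale the differences were 9.95 (Slc4a1), 9.59 (Epb42), 6.87 (Epb41), 2.16 (Ank1), 1.23 (Sptb) and 0.91 (Gypc), and 6 of 6 still passed (adjusted p up to 0.00019). Rhag had 0 counts in 8 of 12 cortex libraries and at most 3 in the others, and Rhd had 0 in 3 and at most 6. Summed over control libraries, Rhag was 560 times higher in blood (2365 against 8 counts, exact 95% interval 284 to 1299) and Rhd 236 times (1866 against 15 counts, 142 to 422), and these intervals cover counting error only. Of the 28 other membrane and skeleton genes, 11 had every control blood library above every control cortex library in plain CPM and 17 the reverse, among them Add1 and Add2, whereas with TMM factors 20 of 24 tested were called higher in blood.

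**Figure D4:**
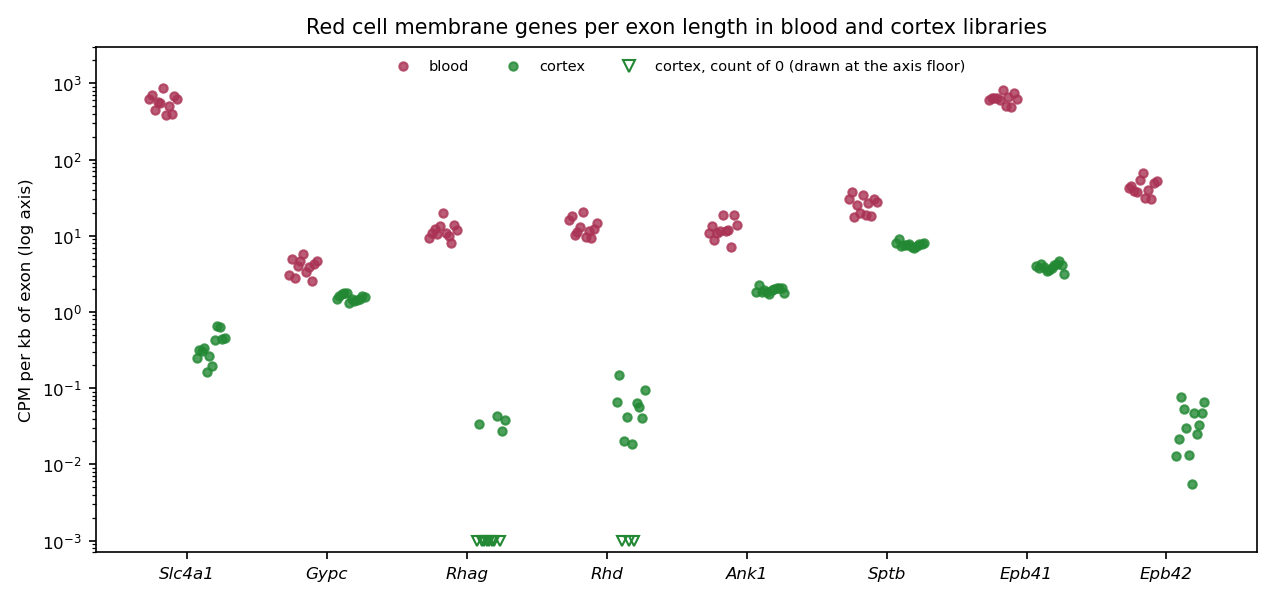
Plain CPM per kilobase of exon (log axis) for each gene in 11 blood and 12 cortex libraries, with open triangles for a count of 0. Slc4a1, Rhag, Rhd and Epb42 stood farthest apart between the tissues, and Sptb led in cortex with a median of 7.68 CPM per kb.

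Cortex therefore held the members at a wide range of shares of their blood level. The summed globin genes stood in cortex at 0.0580% of their mean in blood. Slc4a1 stood at 0.0641% (0.0790% in controls and 0.0529% with nPM) and Epb42, on 1 to 14 counts a library, at 0.0815%, near the globin share. Rhag stood at 0.101% over all libraries, on at most 3 counts in any of them, with 0.18% in controls and 0.0358% with nPM, and Rhd, also on few counts, at 0.344%. Epb41 stood at 0.618%, and Ank1 (15.6%), Sptb (29.5%) and Gypc (39.0%) were far above. When the blood level of a gene was scaled by the globin of each cortex library, Sptb was over that value in 12 of 12 cortex libraries, by 317 to 886 times, Ank1 in 12 of 12 by 158 to 465 times, Gypc in 12 of 12 by 403 to 1312 times and Epb41 in 12 of 12 by 5.61 to 17.6 times. Slc4a1 was at 0.824 to 1.51 times that value and over it in 8 of 12. Per kilobase, the order in cortex was Sptb, Epb41, Ank1, Gypc and then Slc4a1, each above the next in 12 of 12 libraries.

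Globin itself differed by lane in cortex. It summed to 244 to 445 CPM in the 8 libraries of lane 2 and to 614 to 678 CPM in the 4 of lane 3, and Slc4a1 was at 0.792 to 2.10 CPM in lane 2 and at 2.16 to 3.22 in lane 3. Over all 12 libraries Slc4a1 went with globin (r = 0.89, permutation p = 5e-05, adjusted p = 0.0004, and rho = 0.85, permutation p = 0.00092, adjusted p = 0.0074, over 8 relations), with r = 0.88 without V20 and V23, and no other member passed the adjustment. Because the libraries formed separate groups by lane, the relations were also taken within lane 2, over 8 libraries. Slc4a1 had r = 0.81 (exact permutation p = 0.014, adjusted p = 0.091) and rho = 0.64 (exact permutation p = 0.096, adjusted p = 0.38). Without the 2 libraries farthest from the median, V16 and V15, r was 0.60. Epb41 had r = 0.76 (exact permutation p = 0.023, adjusted p = 0.091), rho = 0.76 (exact permutation p = 0.037, adjusted p = 0.29) and r = 0.81 without those 2. For the other 6 genes r ran from -0.53 (Rhd) to 0.47 (Epb42), with adjusted exact permutation p of at least 0.47, so no relation passed the adjustment within lane 2, and lane 3 held too few libraries for a value.

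**Figure D5:**
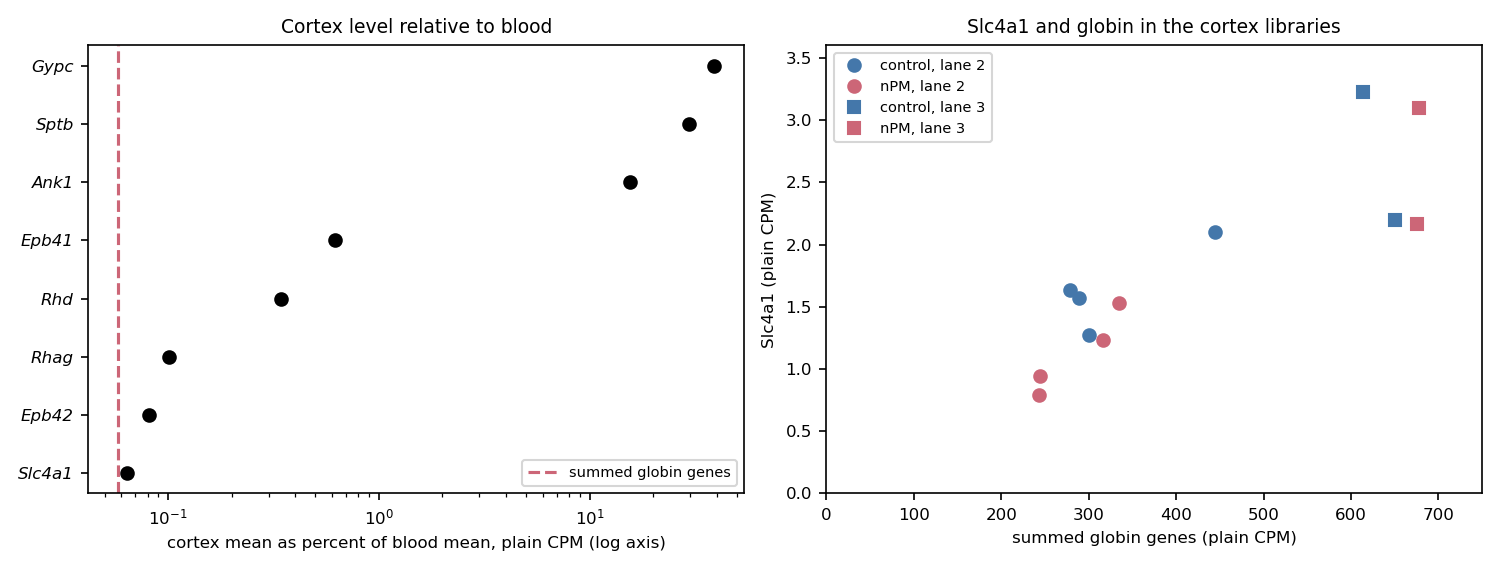
Left, mean cortex level of each gene as a percent of its mean blood level in plain CPM (log axis), with the summed globin genes as a dashed line at 0.0580%. Right, Slc4a1 against summed globin in 12 cortex libraries by exposure and lane, where the 4 libraries of lane 3 lay to the right of the 8 of lane 2.

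The last comparison asked whether nPM changed these genes in cortex, and no member passed the test. Of the 8 genes 6 had a count in every library and entered the edgeR fit. Rhag and Rhd entered only where genes with a count in any library were kept, with differences of -1.16 log2 (adjusted p = 0.92) and -0.39 log2 (adjusted p = 1). Slc4a1 was at 1.31 to 3.22 scaled CPM (median 1.87) in the 6 controls and at 0.792 to 3.07 (median 1.38) in the 6 nPM libraries, a fitted difference of -0.31 log2 (95% interval -0.94 to 0.31). This Slc4a1 cortex nPM versus control value ran from -0.62 without V20 to -0.16 without V11, and was -0.61 without lane 3 (edgeR adjusted p = 0.25). Sptb was at 83.6 to 109 (median 94.3) and at 86.6 to 97.5 (median 93.1), a difference of -0.03 log2 (-0.13 to 0.07). Epb41 was at 51.8 to 68.5 (median 60.4) and at 55.2 to 73.5 (median 65.2), a difference of 0.09 log2 (-0.04 to 0.21). The groups overlapped for all of these. Ank1 differed by -0.02 log2 (-0.15 to 0.10), Gypc by 0.07 log2 (-0.17 to 0.31) and Epb42, at 1 to 14 counts a library, by -0.17 log2 (-1.13 to 0.79).

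The adjusted p ran from 0.89 to 0.97 in edgeR, and 0 of 6 passed an unadjusted p of 0.05 or 0.005. Over all 20857 genes tested 0.0144% passed the adjusted test, 0.614% the cutoff of 0.005 and 5.67% that of 0.05, and libraries did not overlap for 0 of 6 members and 0.192% of all genes. The intervals were narrow for Ank1, Sptb and Epb41, each within 0.21 log2 of 0, and wide for Slc4a1 and Epb42. The sex term in cortex ran from -0.42 (Epb42) to 0.19 log2 (Gypc) with adjusted p from 0.74 to 0.98, and 0 of 6 members passed the adjusted test (0.0% of all genes), the cutoff of 0.005 (1.35%) or that of 0.05 (9.68%). The exact permutation tests of the 8 members in both tissues gave an adjusted p of at least 0.79 in scaled CPM. In lane 2 the mean log2 difference was above 0 for 3 of 8 members and in lane 3 for 4 of 8.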

How the data were processed

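RNA from whole blood and cerebral cortex was depleted of ribosomal RNA (RiboZero Gold) and sequenced on an Illumina HiSeq instrument. Per the labels and the methods, the authors trimmed reads with Trimmomatic, aligned them to mm10 with HISAT2 and counted Gencode M11 genes with featureCounts 1.5.0-p3. The strand setting is not given in the sources used here, so reads of overlapping genes on opposite strands cannot be told apart. Genes overlapping Ank1, Sptb or Epb41 had at most 12 counts in a library. The deposited counts were used as raw counts. The deposited gene table also holds exon lengths, used for levels per kilobase, and a mean RPKM made by the authors, which was not used.

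Tests were edgeR 4.0.16 quasi-likelihood fits (two-sided, Benjamini-Hochberg adjustment over all genes tested) with TMM factors, exposure, sex and RIN, keeping a gene only where no library had 0 counts. The sex term was added in a second model. The fit of tissue in controls had 5 blood and 6 cortex libraries. Cutoffs were an adjusted p of 0.05 and an unadjusted p of 0.005. Exact permutation tests used log2 CPM with a prior count of 0.5. The cortex relations with globin within lane 2, the level scaled by globin, and the counts of plain CPM ranges that did not overlap were chosen after seeing the data. DESeq2 1.42.0 and limma 3.58.1 served as alternatives, and R 4.3.3 and Python were used. The fits of the nPM difference in each tissue and of blood against cortex were tested on simulated data. Those with the sex term were not. Named genes were the 8 members, 28 other membrane and skeleton genes, 21 paralogs and the 3 genes most like the members in each tissue. In cortex those were Elfn2, Trmt12 and Dctn1 (r = 0.84 to 0.87 over 12 libraries), from the mean of 3 members, Slc4a1, Sptb and Epb42, although the members did not vary together there (median r of 0.06 over 15 pairs). The members and lists were chosen with earlier results of these data known. Within each tissue, replicates were taken as separate neonates, 3 of each sex and exposure per the methods. Values of some single genes of the lists are not reported here.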

Additional observations from a re-analysis of the deposited data

How the results depend on the processing

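The paper describes blood and cortex as coming from the same animals. Each library has a number of its own, so no paired analysis was possible. The fit of blood against cortex took the libraries as independent. No member was called for nPM or for the sex term under any alternative run for that comparison, and every member tested was called higher in blood than cortex under each of 22 (6 members, or 5 at a filter of 10 counts, which left Epb42 out). The alternatives were DESeq2, limma voom, RLE factors, other count filters, globin left out, each library left out, V2 put back (blood), no RIN and lane added (not for blood versus cortex, where sex was dropped), V2 exchanged for V4 or V17 (the nPM difference in blood alone) and, chosen after seeing the data, library totals alone and lane 3 left out. In the exact permutation tests, 1 gene, Epb41, passed in plain CPM in place of scaled CPM. The count of members past the unadjusted cutoff of 0.005 for the sex term in blood was 1 with DESeq2, limma voom or RLE factors and 0 to 3 with a library left out (1 without V17, 3 without V7).

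The difference of Rhd in blood turned positive without RIN (0.0141), with V2 put back (0.29), with V4 (0.19) or V17 (0.53) left out in its place, with library totals (0.0507) and without lane 3 (0.0779). In cortex that of Epb41 was -0.00536 without lane 3, and the Epb41 nPM-by-sex interaction in cortex (the sex term) was 0.0166 with library totals. The sex term of Epb42 in cortex was 2.20 without lane 3. With each library left out in turn, the log2 ranges that crossed 0 were, for the nPM difference in cortex, Ank1 (-0.0641 to 0.0106) and Epb42 (-0.48 to 0.13), and for the sex term in cortex, Epb41 (-0.10 to 0.16), Epb42 (-0.89 to 0.38) and Slc4a1 (-0.95 to 0.68), and for the nPM difference in blood, Epb42 (-0.19 to 0.16), Gypc (-0.0368 to 0.22), Rhd (-0.28 to 0.073), Slc4a1 (-0.0844 to 0.24) and Sptb (-0.0407 to 0.26). The first of these, the Ank1 cortex nPM versus control difference, was -0.02 with all libraries. For the nPM difference in cortex, 1 of 6 members had an unadjusted p under 0.05 without V20, without V16 or without lane 3. The cause of these changes was not tested, and some of these fits also had fewer libraries. Without V4 or V17 the lone control female is assumed to vary like the other groups. Depth limits Rhag, Rhd and Epb42 in cortex, where libraries held at most 14 counts.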
